A study of Rattus norvegicus with 484 samples.

Results

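The livers of untreated rats were compared with each other, to describe which genes differed most from animal to animal and which genes rose and fell together. The arrays were chosen by their labels alone: every array of the tissue Liver with vehicle control at 0 mkd, on days 2 to 6. They were 73 of the 484 arrays of the series, with 14 rats on day 2, 14 on day 3, 15 on day 4, 14 on day 5 and 16 on day 6. Each array set 1 rat (Cy5) against a pool of vehicle livers of the same day (Cy3), made from 14, 15, 15, 14 and 16 rats in the order of the days. None of these rats had received a test compound, and no treated array entered any comparison. The vehicle, strain, sex, age, feeding state and hour of sampling are not given in the sources used here. Of the same rats, 58 also had an array of the muscle labelled quad and 33 one of soleus, which served as a second tissue of the same animal.

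The liver sets its metabolism by the hour and by the last meal. The circadian clock is a loop in which Bmal1 with Clock or Npas2 switches on the Per, Cry, Nr1d1 and Dbp genes. The products of the Per, Cry and Nr1d1 genes in turn hold Bmal1 and its partners back, while Dbp is an output. Insulin and low sterol raise the SREBP targets of cholesterol and fatty acid synthesis, fasting raises gluconeogenesis and the fatty acid oxidation genes under PPARA, and infection or injury raises interferon-stimulated and acute phase genes. Inherited differences between animals can also set the level of a transcript, often the same way in several tissues.

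All values are log2 ratios of a rat to its pool. For spread and correlation the mean of each gene on each day was subtracted, which removes the pool and the day. Where a single gene is said to run from a lowest to a highest value, these are ratios before this step. Such ranges therefore include differences between the pools of the days. The arrays were well centred, with median ratios from -0.0176 to 0.0307. The livers of rats 1003, 1032 and 1048 gave arrays more than 1.5 times as wide as the median array. Rat 1041 on day 4 stood apart in acute phase genes. Rats 1050 and 1054, both of day 5, held the ends of several gene groups, so counts are given without these rats where leaving them out was tried. The ratios carry no absolute level, and the tissue label could not be checked against the level of liver genes. The median of 6 hepatocyte markers lay between -0.43 and 0.42 in single rats. The median of 8 skeletal muscle markers lay between -0.17 and 0.65, highest in rat 1013, and the median of 12 pancreas acinar markers between -0.20 and 0.11. Each liver was on 1 array, so the spread between rats includes the error of the array.

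Most genes differed little between untreated livers. The SD between rats had a median of 0.155 over 18403 features (10069 of them named genes), a 1.11-fold step, and the middle 90% of features lay between 0.073 and 0.396. An SD above 0.5 was reached by 477 features (2.59%), and an SD above 1 by 53, of which 32 were named. The 30 widest named genes ended at an SD of 1.017, and the next, Oas1a, stood at 1.012. Symbols that only number a locus were left out of the 30. Where a gene had several probes, their agreement gave a measure of the error of single probes. It leaves out the error of the array, which the probes of a rat share. Different probes of a gene correlated across rats at a median r of 0.27 over 3198 genes, but at 0.92 over the 117 such genes among the 600 widest. Probes were averaged before genes were ranked, so genes whose probes disagreed tended to rank lower, which raises the value among the widest. The probes of Mlc1, a membrane protein gene, correlated at 0.04, and those of the hydroxysteroid sulfotransferase Sult2a2 at 0.43.

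Many of the widest genes were not spread evenly but fell into an upper and a lower set of rats with nothing between. Fam111a, which encodes a serine protease, had the largest SD of all named genes at 2.01, and its ratios ran from -4.23 over a median of -0.16 to 1.77. On each of the 5 days a gap of 2.03 to 3.19 separated the rats: 32 lay at -2.32 or lower and 41 at -0.46 or higher. Mis18a, needed to load the centromere histone, had ratios from -3.44 to 2.31 (median -1.46), with 48 rats below and 25 above gaps of 2.23 to 3.14. Pop5, a subunit of ribonuclease P, ran from -2.69 to 1.80 (median 0.00), with 35 rats below and 38 above. In these 3 genes every day had rats on each side, and the number on the lower side changed from day to day, from 3 to 8 for Fam111a and from 2 to 11 for Pop5.

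Other genes had a few low or a few high rats. Ubd, the ubiquitin-like protein FAT10, was at -4.21 or lower in 12 of the 57 rats of the 4 days that had a gap, and between -0.94 and 1.43 in the other 45. Adtrp, a hydrolase of fatty acid esters, was at -3.51 or lower in 10 of 58 rats. Abhd3, a phospholipase, went the other way, with 17 of 73 rats at 0.52 or higher and 56 at -1.0 or lower. Ephx2, the soluble epoxide hydrolase, split 22 against 36 rats on 4 days, and its 3 probes correlated at 1.00. Sult2a2, the aldo-keto reductase Akr1c1 and Acsm5, an acyl-CoA synthetase of medium-chain fatty acids, also had gaps on all 5 days, but belong to families of near-identical genes whose probes may cross-hybridise, so their identity is uncertain. A gap above 1 on at least 4 of the 5 days was found in 26 named genes and 34 unnamed probes, by a rule made after the data were seen.

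**Figure D1:**
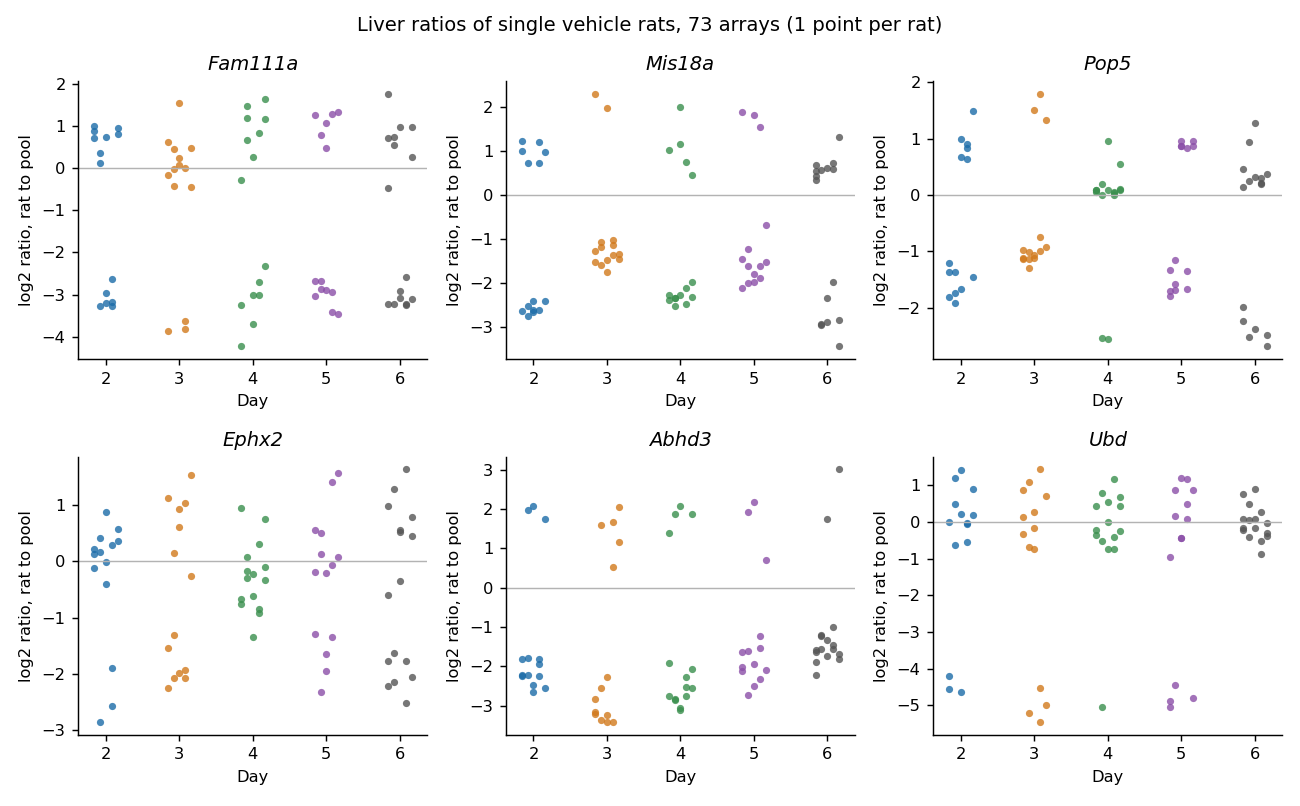
Log2 ratio of rat to pool in the liver (vertical axis) by day (horizontal axis) for 6 genes, 1 point per rat, 73 rats. Fam111a, Mis18a, Pop5 and Abhd3 show an upper and a lower set of rats on every day, Ephx2 on 4 days, and Ubd has 12 rats at -4.21 or lower, all on days 2 to 5.

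Muscle of the same animals showed which of these differences a rat carried in both tissues. Fam111a in liver and quad of the same rat correlated at r = 0.97 (58 rats, adjusted p = 6.28e-31 by limma's moderated test over all features), Mis18a at 0.95 (adjusted p = 5.77e-27) and Pop5 at 0.98 (adjusted p = 8.4e-37). In soleus the 33 rats gave 0.97, 0.95 and 0.99 in the same order. Over all features, 863 of 17785 passed this test (4.85%), 820 of them in the same direction in both tissues (4.61%). Of the 26 named genes with a gap, 14 passed, all of them in the same direction. Beside those above they included Pira2, an immunoglobulin-like receptor of myeloid cells (r = 0.83), Stt3a, a subunit of oligosaccharyltransferase (0.82), Ephx2 (0.81), Usp2, a rhythmic deubiquitinase (0.78), Slc35c2, a sugar transporter (0.68), and the peptidase inhibitor Slpi (0.63). Among the 30 widest genes 13 passed, and among the 600 widest 96 of 571.

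Other wide genes differed between livers with no such match in muscle. Abhd3 correlated at -0.37 (adjusted p = 0.0894), Sult2a2 at 0.21 (adjusted p = 0.578), Akr1c1 at -0.10 (adjusted p = 0.871) and Acsm5 at -0.20 (adjusted p = 0.591). Their spread in quad was far smaller than in liver, with an SD of 0.208 for Abhd3 against 1.834, and of 0.077 for Acsm5 against 1.268. The ratios do not show whether these genes are expressed in muscle at all. Blm, a DNA helicase, was split in liver (25 of 57 rats below its gaps) and not matched in quad (r = -0.09, adjusted p = 0.884). Tas2r13, a bitter taste receptor, reached 6.64, with 38.2% of its variance from 1 rat, and correlated at 0.03.

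**Figure D2:**
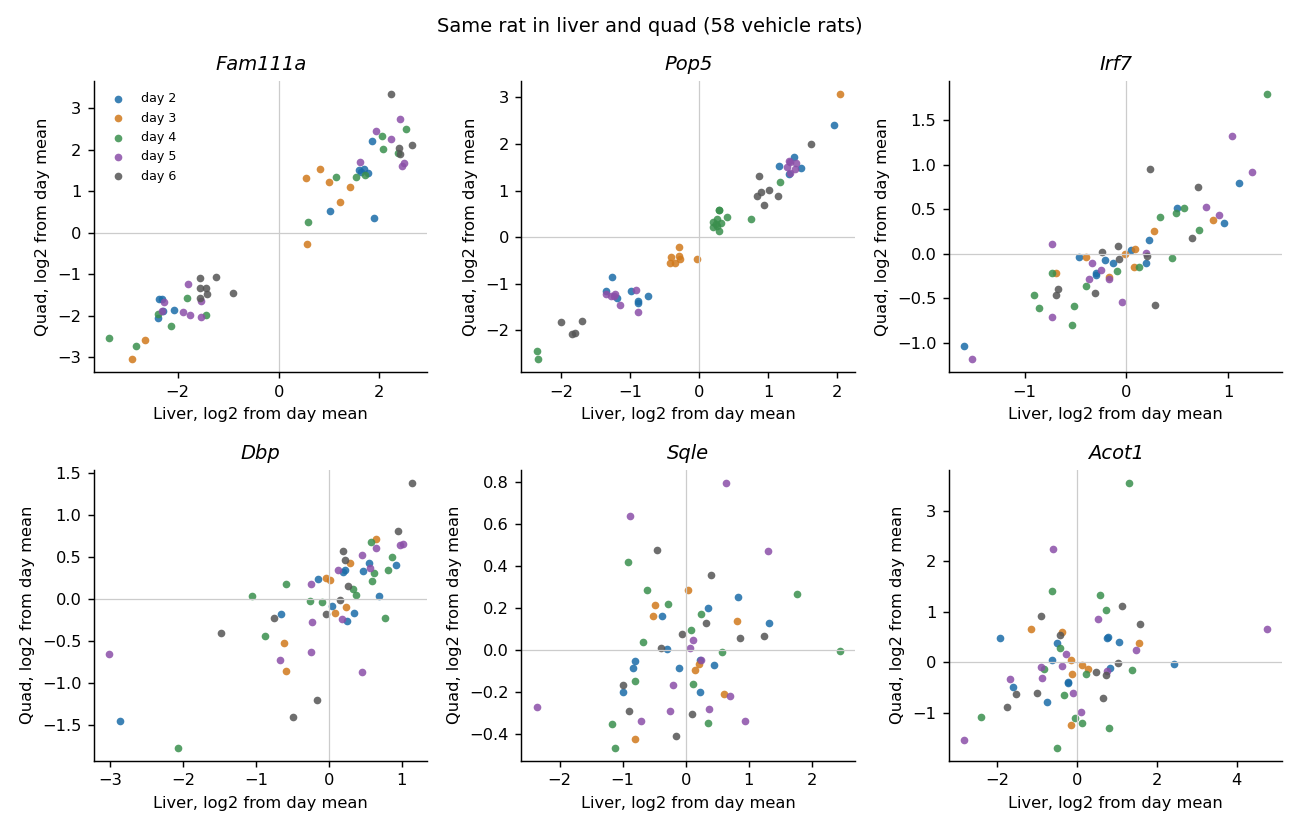
Day-centred log2 value in quad (vertical axis) against liver (horizontal axis) of the same 58 vehicle rats for 6 genes, coloured by day. Fam111a, Pop5, Irf7 and Dbp lie along a rising line (r = 0.97, 0.98, 0.85 and 0.71), while Sqle and Acot1 scatter (r = 0.24 and 0.32).

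Several of the widest genes moved with a gene beside them on the chromosome. The best correlated partner of each gene, among all named genes, was at most 20 annotated genes away for 2.58% of all named genes, for 13.83% of the 600 widest and for 9 of the 30 widest. The order of genes was taken from the GRCr8 assembly. Acsm5 was paired with the adjacent Acsm2 (r = 0.82), Acot1 with the adjacent Acot2 (0.82) and Casp12 with Casp4, with 1 gene between (0.65), all members of clusters of similar genes. Pairs of unlike genes were Fam111a and Dtx4, a ubiquitin ligase gene with 2 genes between them (0.65), and Scrn1 and Fkbp14 with 1 between (0.53). Slpi and Wfdc2, both protease inhibitors of 1 cluster, correlated at 0.64 with 10 genes between. Blm and the aminopeptidase Anpep lay 30 genes apart and correlated at 0.81, and between 0.69 and 0.90 within each day. Acsm5 with Acsm2 held between 0.65 and 0.94.

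Of the 600 widest named genes, 139 fell into 14 groups of at least 5 genes that varied together, by average linkage on 1 minus Pearson r with a limit of 0.4. Within groups the median r between members was 0.65 to 0.81. Since groups were built from these correlations, their cohesion is given as a description. The groups are named here by the gene most correlated with the rest. Those led by Lama3 (19 genes), Irf7 (17), Idi1 (17), Kynu (13), Gbp2 (12), Cdk1 (10) and Zfp354a (10) were the largest. Some group means were opposed, among them Lama3 and Kynu (r = -0.95), Kynu and Hsd11b2 (-0.81), and Lama3 and Bmal1 (-0.68). Others moved alike, among them Kynu and Bmal1 (0.73), Lama3 and Hsd11b2 (0.80), and Irf7 and Gbp2 (0.65). The group led by Esr1, the estrogen receptor, with the netrin receptor Dcc, the defensin Defa5 and the channel subunit Kcnmb4 (6 genes), had no correlation with the mean of another group beyond 0.11 in size. The ratios do not show whether the genes of this group are expressed in liver at all. With Spearman in place of Pearson correlation, 10 of the 14 groups kept most of their genes. The groups led by Esr1, Aig1, Bmal1 and Adcy10 did not.

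**Figure D3:**
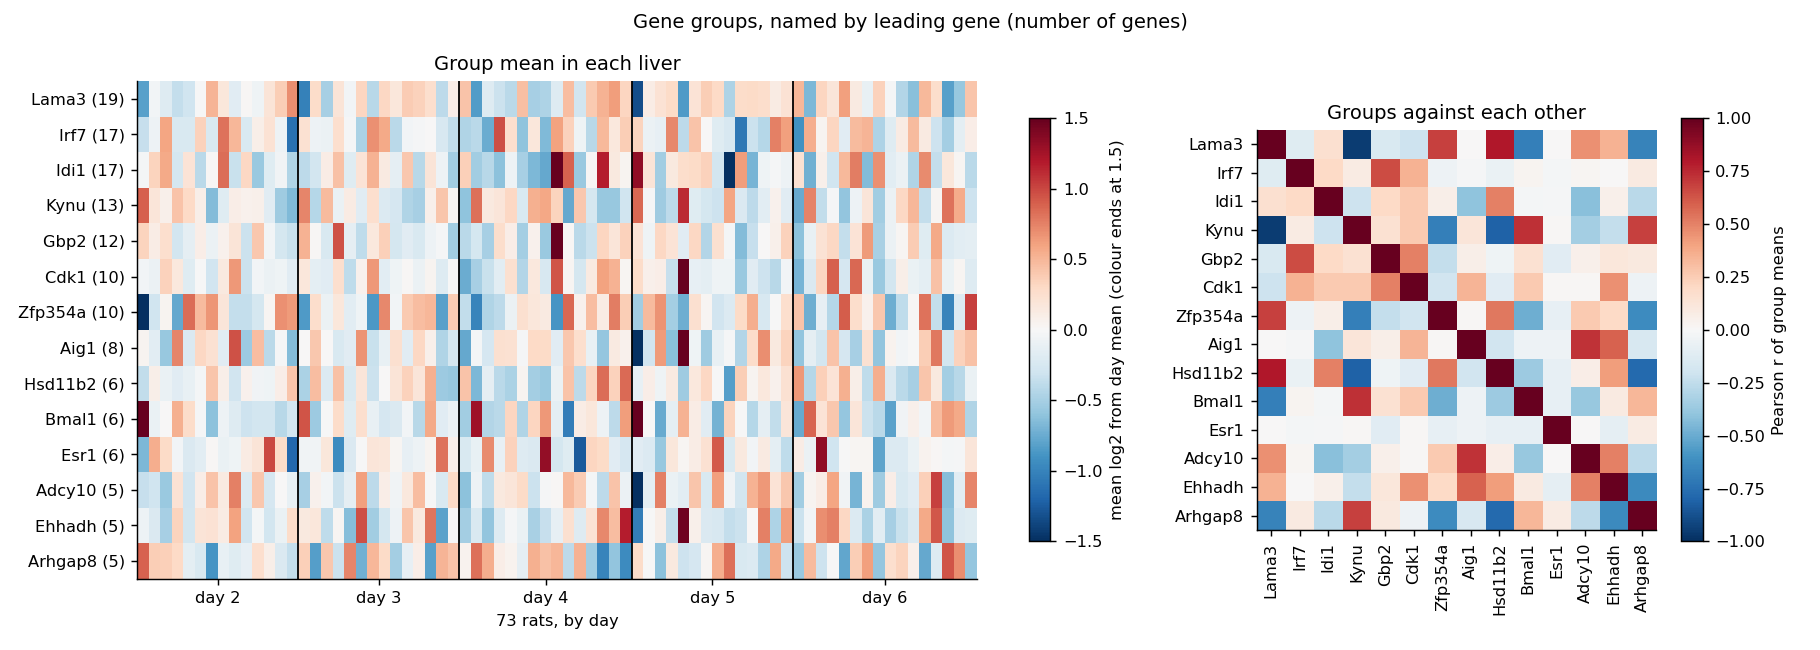
Left, mean day-centred log2 value of each of the 14 gene groups (rows, with the number of genes) in each of the 73 livers (columns, by day). Right, Pearson r between the group means: the Lama3 and Kynu rows are opposed (-0.95), and single columns stand out for rat 1041 (Idi1 1.5, Gbp2 1.67) and rat 1050 (Aig1 -2.11, Adcy10 -2.61).

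Clock genes varied widely and in opposed sets. Bmal1, the activator of the loop, ran from -2.47 over -0.75 to 2.63 with an SD of 1.119, a 4.83-fold range between the 10th and the 90th percentile of the rats. Dbp, an output transcription factor, ran from -3.23 over -0.01 to 1.04 with an SD of 0.829. Rats with high Bmal1 had low Dbp (r = -0.93, Spearman rho = -0.91, -0.92 without the 2 rats farthest out, and -0.96 to -0.90 within days). In the fit of every feature on Dbp, 1003 of 18402 passed (5.45%, with 2.36% in its direction and 3.09% against it). Of the 15 other clock genes measured, 7 moved with Dbp, 3 against it, and 5 did not pass. Those moving with it included Bhlhe41 (r = 0.88), Tef (0.87), Nr1d2 (0.86) and Per3 (0.80), and those against it Bmal1, Npas2 (-0.55) and Nfil3 (-0.35). Per1, Cry1, Bhlhe40, Wee1 and Clock did not pass, with r from -0.22 to 0.35. Hsd17b2, a steroid dehydrogenase that is in no list, correlated at 0.85.

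The clock genes did not all share the pattern of Dbp and were divided among groups. Per2, Usp2 and Tef were in the group of Lama3, a laminin chain, with Nampt, the enzyme of NAD salvage, Por, the reductase that serves the P450s, and the acetyltransferases Nat8, Nat8b, Nat8f3 and Nat8f5, near-identical genes that cannot be told apart with certainty. Npas2 was in the opposed group with Kynu (tryptophan breakdown), Gckr, the regulator of glucokinase, Cth (cysteine synthesis) and Crot (peroxisomal fatty acid export), although its own probes correlated at -0.34. Per1 was in the group of Zfp354a, a zinc finger gene with an SD of 1.121 and a 7.27-fold range between the 10th and the 90th percentile. The group held Tsc22d3, the glucocorticoid-induced leucine zipper, and Noct, and was lowest in rat 1001 (mean -1.5) and highest in rat 1080 (1.03). Cry1 and Bhlhe40 were in the group of Hsd11b2, and Bmal1 led a group of 6 with Avpr1a, the vasopressin receptor, and Inhba, the activin subunit. Per1 and Per2 correlated at 0.60. Nr1d1 itself, a repressor of Bmal1, ran from -2.85 over -0.14 to 1.27, and its closest partner was Cry1 (-0.88). When Nr1d1 took the place of Dbp, 3276 features passed, and without the 2 rats farthest out in Dbp 501 did, with 6 of 15 clock genes moving with Dbp and 1 against it.

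Of the 15 clock genes tested in both tissues, 11 passed between liver and quad, all in the same direction (median r of the 15 = 0.52), against 4.61% of all features in that direction. Clock (r = -0.17), Cry1 (-0.14), Nfil3 (0.27) and Bhlhe41 (0.37, adjusted p = 0.0802 by limma) did not pass. Dbp in liver and quad correlated at r = 0.71 (permutation p = 1e-05 within days, the smallest that 100000 resamples can give, adjusted p = 5e-05 over 10 genes) and rho = 0.72 (permutation p = 1e-05). It was 0.70 without the 2 rats farthest out, 0.61 to 0.89 within days, and 0.66 in soleus over 33 rats. By the test over all features the same held for Per1 (r = 0.80, adjusted p = 3.21e-11), Usp2, Npas2 (0.77), Nr1d1 (0.77), Bmal1 (0.63, adjusted p = 1.12e-05) and Per2 (0.62), and for Tsc22d3 (0.58). Of the 19 genes of the Lama3 group 4 passed, and of the 10 of the Zfp354a group 3.

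Promoter sequences are shown for clock genes that hold a known clock element in the RefSeq windows of GRCr8 (250 bases before to 50 after an annotated start). The E-box CACGTG, bound by Bmal1 and its partners, was found in 1 window each of Nr1d1, Tef, Bhlhe41 and Bhlhe40, the D-box TTANGTAA, bound by Dbp and Tef, in that of Per2, and the ROR element AANT followed by AGGTCA, bound by the Ror and Nr1d1 receptors, in that of Bmal1. Both strands were searched and matches of different motifs did not overlap. Of all 33469 windows, 6.42% held the E-box, 2.24% the D-box and 0.245% the ROR element. No E-box was found for the other measured clock genes, among them Dbp, Per1 and Per2, and whether each has a window was not counted. The E-box was in 2 of 18 genes of the Lama3 group and 2 of 13 of the Kynu group, against 9.51% of the named genes of the arrays. Each line gives 60 bases upstream of the start on the gene's strand, 5′ to 3′, with the element in capitals. A match describes letters and is no evidence of binding in these livers.
Nr1d1 (chr10:84229613-84229672, minus strand): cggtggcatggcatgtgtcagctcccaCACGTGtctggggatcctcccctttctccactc
Tef (chr7:115206602-115206661, plus strand): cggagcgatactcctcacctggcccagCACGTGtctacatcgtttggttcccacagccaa
Bhlhe41 (chr4:180569371-180569430, minus strand): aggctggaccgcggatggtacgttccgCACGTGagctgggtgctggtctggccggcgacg
Bhlhe40 (chr4:143174203-143174262, plus strand): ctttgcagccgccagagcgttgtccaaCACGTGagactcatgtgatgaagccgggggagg
Per2 (chr9:99497152-99497211, minus strand): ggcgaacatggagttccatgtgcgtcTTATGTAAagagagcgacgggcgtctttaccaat
Bmal1 (chr1:176766268-176766327, plus strand): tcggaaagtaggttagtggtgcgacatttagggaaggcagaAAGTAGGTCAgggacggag

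Cholesterol synthesis varied as a tight unit. Sqle, the squalene epoxidase, ran from -2.57 over -0.16 to 1.86, lowest in rat 1058 and highest in rat 1041 after day means were removed, a 3.70-fold range between the 10th and the 90th percentile. With Sqle as the reference, 491 of 18402 features passed (2.67%, with 1.71% in its direction and 0.962% against it). All 16 other measured genes of the sterol list passed in its direction, with a median r of 0.82, led by the isomerase Idi1 (0.98, adjusted p = 9.7e-45), Msmo1 (0.97), Cyp51 (0.94), Mvk (0.92) and Mvd (0.89), and ending with Acat2 (0.45) and Sc5d (0.39). Over all named genes the median r with Sqle was -0.01. The lowest counts for the list were 14 of 16, without day 5 and with 1 probe per gene.

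Fatty acid synthesis followed. Fasn, the fatty acid synthase, ran from -2.46 over -0.21 to 2.39, and correlated with Sqle at r = 0.87 (permutation p = 1e-05, adjusted p = 0.00045 over 45 pairs) and rho = 0.91 (permutation p = 1e-05), with 0.85 without the 2 rats farthest out and 0.85 to 0.91 within days. With Fasn as the reference 1142 features passed (6.21%, with 3.17% in its direction and 3.03% against it), among them 11 of 15 other genes of the lipogenic list, all in its direction: Acaca (0.87), Acly (0.84), Slc25a1 (0.83) and Aacs (0.83) led, and Me1, Gpam, Mlxipl and Elovl5 did not pass. All 17 measured sterol genes passed with Fasn too. Acadl, the long-chain acyl-CoA dehydrogenase, moved against it (-0.63), as did 4 of 15 measured PPARA targets (2 of 15 without the 2 rats farthest out in Fasn, and 2 without day 5). None of the 17 genes in the group led by Idi1 passed the test between liver and quad (limma, 1 of 17 at an unadjusted p under 0.05), with r from -0.12 to 0.39. With 4.85% of all features passing, this count does not set the group apart. Sqle itself had r = 0.24 (permutation p = 0.096, adjusted p = 0.32) and rho = 0.24 (permutation p = 0.081). Fasn was not flat in quad, where its SD was 1.468.

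Genes of fatty acid oxidation under PPARA also differed between rats that had received none of the agonists. Acot1, an acyl-CoA thioesterase, ran from -5.92 over -0.71 to 1.69. After day means were removed it lay between -3.01 (rat 1050) and 4.59 (rat 1054), with an SD of 1.265, and 19.3% of its variance came from 1 rat. Cyp4a1, the omega-hydroxylase, ran from -1.67 over -0.09 to 1.17. With Cyp4a1 as the reference 2177 features passed (11.8%, with 5.56% in its direction and 6.27% against it), and 9 of 14 other PPARA targets, all in its direction: Pex11a (r = 0.73), Ehhadh (0.70), Cyp4a3 (0.70), Crat (0.66) and Cpt2 (0.65) led, and Vnn1, Hadha, Cd36, Aqp3 and Aqp7 did not pass. Without the 2 rats farthest out in Cyp4a1, 7 of 14 passed, and without day 5, 6 of 14. With Acot1 as the reference in its place, 410 features passed.

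Members of the list were spread over 2 groups. Ehhadh, Pex11a, Pdk4, Plin2 and Cyp4a1 made 1 group, and Aig1, Ech1, Acot2, Acaa1b, Acot1, Vnn1, Hsdl2 and Cpt1b the other. Their means correlated at 0.59. Rat 1050 was lowest in each (-1.04 and -2.11) and rat 1054 highest (1.46 and 2.09). Ehhadh and Acot1 correlated at r = 0.49 over all rats, at 0.37 without the 2 rats farthest out in Ehhadh, and between -0.19 and 0.86 within days. Without rats 1050 and 1054 the groups led by Aig1, Ehhadh, Adcy10, Cdk1 and Bmal1 no longer held most of their genes together, and 9 of the 14 did. Rat 1050 was also the lowest in Dbp (-3.03 from the day mean) and the highest in Fasn (2.74). No gene of either PPARA group passed between liver and quad (0 of 8 and 0 of 5 by limma, with 1 and 0 at an unadjusted p under 0.05). Over all features 4.85% passed, so a count of 0 among so few genes does not set these groups apart.

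**Figure D4:**
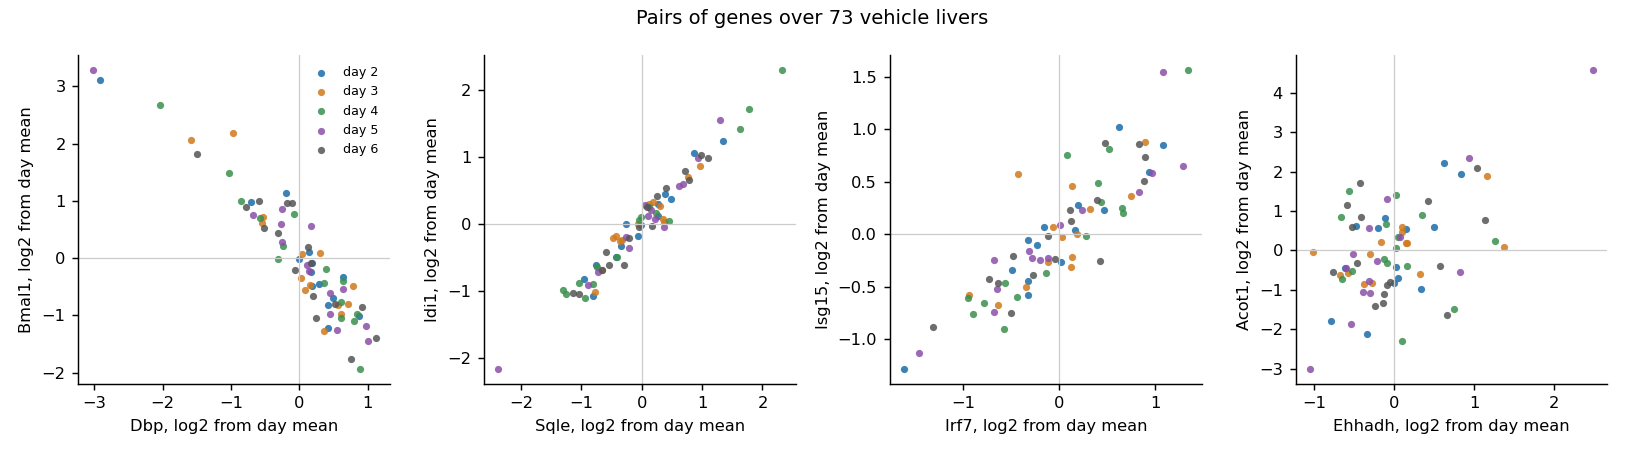
Day-centred log2 values of pairs of genes over 73 vehicle livers, coloured by day, 1 point per rat. Bmal1 falls as Dbp rises (r = -0.93), Idi1 follows Sqle (0.98) and Isg15 follows Irf7 (0.88), while Acot1 against Ehhadh (0.49) is drawn out by a few rats.

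The fasting genes were less of a unit. Pck1, the entry enzyme of gluconeogenesis, ran from -2.23 over 0.01 to 0.59, and rat 1054 alone made up 43.9% of its variance. With Pck1 as the reference 1856 features passed (10.1%, with 5.02% in its direction and 5.06% against it), and of 14 other fasting genes 5 moved with it, Cdkn1a moved against it (-0.33), and 8 did not pass. G6pc1 (r = 0.61), Cpt1a (0.58), Fgf21 (0.36) and Tsc22d3 (0.36) had the largest r, and without the 2 rats farthest out 3 of 14 passed. Of 21 cell cycle genes 12 passed against Pck1 and none with it, at a median r of -0.44. Rat 1054, lowest in Pck1 (-2.09 from the day mean), was also highest in the median of the cell cycle list (0.80). Without that rat 3 of 21 passed, without the 2 rats farthest out in Pck1 4 of 21, and without day 5 3 of 21, all of them against Pck1. Pck1 and Top2a themselves correlated at r = -0.36 (permutation p = 0.027, adjusted p = 0.15) and rho = -0.16 (permutation p = 0.18), and at r = -0.05 without day 5. Of 16 lipogenic genes 7 passed against Pck1 and none with it, with 4 of 16 left without rat 1054, 3 without the 2 rats farthest out and 1 without day 5.

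Interferon-stimulated genes made a group of 17, in which the share of genes matched in muscle was the highest of the 14 groups. Irf7, a transcription factor of the response, ran from -1.76 over -0.14 to 1.15, lowest in rat 1015 and highest in rat 1036 after day means were removed. With Irf7 as the reference 405 features passed (2.2%, with 2.07% in its direction and 0.13% against it), of which 381 moved with it. Of 15 other interferon genes 13 passed, all in its direction: Oas1a (r = 0.95), Oasl (0.95), Ifit3 (0.93) and Isg15 (0.88) led, and Stat2 and Irf1 did not pass. The count was 12 or 13 under each setting tried for this reference. Between liver and quad, Irf7 correlated at r = 0.85 (permutation p = 1e-05, adjusted p = 5e-05) and rho = 0.82 (permutation p = 1e-05), at 0.82 without the 2 rats farthest out, at 0.61 to 0.94 within days, and at 0.91 in soleus. Of the 17 genes of its group, 11 passed between liver and quad, against 4.85% of all features, with Mx2 (0.78), Ifit3 (0.72) and Isg15 (0.71) following Irf7. Ifit1, not in the group, ran from -2.57 to 2.40 and passed as well (0.83).

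Markers of immune cells moved beside it. Of 12 measured macrophage and Kupffer cell markers 8 passed with Irf7 and none against it (median r = 0.47), and of 13 lymphocyte markers 5 and none (0.32). The ratios carry no level of such cells. The median of the macrophage markers ran from -0.35 (rat 1054) to 0.37 (rat 1041), and that of the lymphocyte markers from -0.19 to 0.27. Their part in the result was not tested. In these bulk samples more cells of a type and more RNA per cell cannot be told apart. The group led by Gbp2, an interferon-induced GTPase, held the chemokines Cxcl9, Cxcl10 and Ccl2 with the myeloid genes Lyz2, Fcgr3a, Lgals3 and Fcnb, and had its highest mean in rat 1041 (1.67) with the lowest at -0.65. Without rat 1041 this group still kept most of its genes. Over all 58 rats, Gbp2 (0.52), Fcgr3a (0.46) and Bcl2a1 (0.41) passed between liver and quad. They were 3 of the 12 genes of the Gbp2 group, against 4.85% of all features. None of the 11 macrophage and Kupffer cell markers and 12 lymphocyte markers tested in both tissues passed. With 4.85% of all features passing, this absence among so few genes does not set the markers apart.

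The promoters of the interferon group are shown because a motif recurs in them. The element GAAA, any 2 bases and GAAA, the core of the site bound by interferon regulatory factors, was found on either strand in the windows of 6 of the 14 group members that have one, against 3.92% of all 33469 windows and 4.12% of all 27457 genes with a window. In the Gbp2 group 3 of 8 had it. None of the 12 members of the Idi1 group with a window held the sterol element TCACNCCAC, which 1.12% of all windows hold, and the glucocorticoid element GNACA, any 3 bases and TGTNC (0.439% of windows) was in no member of a group. The 6 stretches follow, with the matches in capitals and reverse-strand matches reading TTTC first.
Irf7 (chr1:205800058-205800117, minus strand): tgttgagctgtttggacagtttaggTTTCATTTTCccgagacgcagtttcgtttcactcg
Oas1a (chr12:41330403-41330462, plus strand): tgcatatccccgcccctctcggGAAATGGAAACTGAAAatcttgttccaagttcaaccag
Ifit3 (chr1:241527257-241527316, plus strand): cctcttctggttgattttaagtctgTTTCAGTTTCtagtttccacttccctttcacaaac
Ifi44l (chr2:243328623-243328682, plus strand): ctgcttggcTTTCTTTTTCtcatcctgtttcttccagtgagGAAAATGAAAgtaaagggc
Lgals9 (chr10:64428071-64428130, minus strand): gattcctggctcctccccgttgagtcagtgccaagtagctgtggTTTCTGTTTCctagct
RT1-S3 (chr20:2675391-2675450, plus strand): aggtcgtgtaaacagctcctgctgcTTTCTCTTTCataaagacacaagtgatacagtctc
Oas1a holds 2 overlapping matches, and the window of RT1-S3, a gene of the major histocompatibility complex with close relatives, may not be the only one its probes report.

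Several acute phase genes were highest in 1 animal. A2m, the alpha-2-macroglobulin that rat liver makes in large amounts after injury, was at 2.69 in rat 1041 and at -5.39 to -3.01 (median -4.45) in the other 14 rats of day 4. On the other days it ran from -1.70 over -0.27 to 2.23. On the linear scale rat 1041 made up 90.4% of the summed A2m ratio of its day. Lcn2, the siderophore-binding lipocalin, was at 2.62 in that rat against -2.02 to -0.76 in the other 14, and Orm1, orosomucoid, at 2.71 against -1.69 to -0.15. The pool of day 4 was made from 15 rats, which is also the number of arrays of that day. If the pool held rat 1041, that rat raised it and so lowered the ratios of the other 14. Their low ratios in these 3 genes therefore need not mean low levels in those livers. Lbp (1.59), Cxcl1 (1.88) and Hpx (1.06) were the highest of all 73 rats there. By their ratios Fga (0.63), Saa4 (0.50) and Crp (0.38) were the highest of day 4 but not of all days. After day means were removed, Fga (0.71) was the highest of all 73 rats there too. Fgb (0.04), Itih3 (0.04), Socs3 (0.20) and Il1r1 (1.05) lay within the range of the other 14 rats of day 4. Hamp, which encodes the iron hormone hepcidin, was at -1.76 and below the other rats of that day.

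Across all rats, 72 features passed with A2m as the reference (0.391%, with 0.348% in its direction and 0.0435% against it), with 5 of 13 other acute phase genes moving with it and Hamp against it. Without rat 1041 only 6 features passed, and none of the 13 (limma, 2 of 13 at an unadjusted p under 0.05). The correlation of A2m with Lcn2 went from 0.64 to 0.08, and with Orm1 from 0.46 to -0.08. Rat 1041 was also highest of all rats in the means of the Idi1 and Gbp2 groups.

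**Figure D5:**
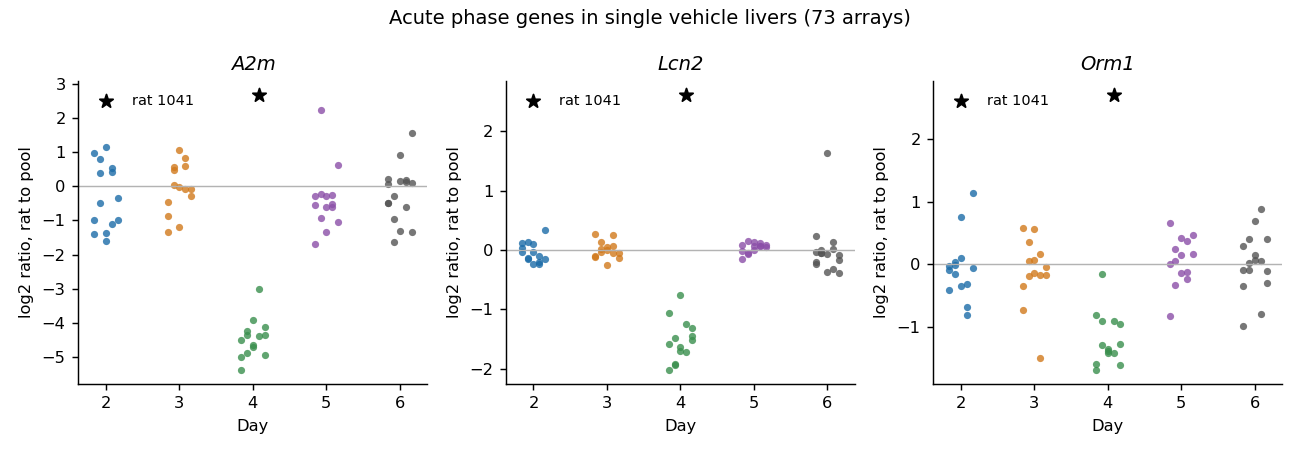
Log2 ratio of rat to pool (vertical axis) by day (horizontal axis) for A2m, Lcn2 and Orm1 in 73 vehicle livers, with rat 1041 as a star. On day 4 the other 14 rats lie below 0 for all 3 genes, and rat 1041 lies at 2.69, 2.62 and 2.71. The pool of that day may hold rat 1041, which would lower the ratios of the others.

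The neutrophil list did not move as one. S100a9 and S100a8, the subunits of calprotectin and adjacent genes, correlated at 0.90, and at 0.86 to 0.92 within days. S100a9 ran from -1.22 over -0.18 to 1.68, highest in rat 1003 after day means were removed. With it as the reference 97 features passed (0.527%, with 0.331% in its direction and 0.196% against it), with 2 of the 5 other measured neutrophil genes, S100a8 and the defensin Np4 (0.43), while Cxcr2, Mmp8 and Retnlg had r from -0.07 to 0.17. Without the wide arrays, which include rat 1003, 14 features passed, and 14 without rat 1041. In soleus of the same rats S100a9 correlated with liver at r = 0.48 (33 rats, permutation p = 0.00013, adjusted p = 0.00043) and rho = 0.68 (permutation p = 6e-05), and in quad at r = 0.06 (permutation p = 0.65) and rho = 0.05 (permutation p = 0.73).

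Cell cycle genes varied together, although the reference gene was itself narrow. Top2a, the topoisomerase of dividing cells, had an SD of 0.128, against a median of 0.261 over the list, and 614 features passed with it (3.34%, with 1.65% in its direction and 1.69% against it). Of 20 other cell cycle genes 13 passed, all in its direction: Aurkb (r = 0.76), Cdk1 (0.73), Ccnb2 (0.72) and Prc1 (0.71) led. Without the 2 rats farthest out 8 of 20 and 112 features passed. The group led by Cdk1 (10 genes, with Ttk, Ckap2, Pttg1 and Uhrf1) had a median r of 0.81 and was highest in rat 1054, at a mean of 1.79 with a lowest mean of -0.74 in rat 1033. Only Ttk, a spindle checkpoint kinase, passed between liver and quad (r = 0.42, adjusted p = 0.03 by limma), although 7 of 9 did at an unadjusted p under 0.05. Over all features 4.85% passed at the adjusted threshold, and 1239 of 9742 named genes had an unadjusted p under 0.05.

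Heat shock genes moved together as well. Hspa1a, the inducible HSP70, ran from -1.42 over -0.21 to 1.13, lowest in rat 1054 and highest in rat 1080 after day means were removed. With it 1000 features passed (5.43%, with 3.06% in its direction and 2.37% against it), and 9 of 12 other heat shock genes in its direction, led by Dnajb1 (r = 0.71), its cochaperone Bag3 (0.66) and Hspa8 (0.65). Hspb1, Hspe1 and Hspa4 did not pass. Hspa1a did not correlate between liver and quad (r = -0.02, permutation p = 0.87, and rho = -0.08, permutation p = 0.59).

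The reference genes were mostly not correlated with each other. Of the 45 pairs of the 10 reference genes, 2 passed at an adjusted p of 0.05: Sqle with Fasn, and Sqle with A2m. The latter had r = 0.41 (permutation p = 0.0014, adjusted p = 0.031) and rho = 0.33 (permutation p = 0.0049, adjusted p = 0.046), and 0.28 without the 2 rats farthest out in Sqle and 0.24 without rat 1041, where it did not pass (adjusted p = 0.17 and 0.27). It did not pass without day 2, 3, 4 or 6 either, with r from 0.29 to 0.43. By ranks alone 3 further pairs passed: Pck1 with S100a9 (rho = -0.44, adjusted p = 0.002), Dbp with Pck1 (0.35, adjusted p = 0.043) and Pck1 with Cyp4a1 (0.32, adjusted p = 0.046). Dbp with Irf7 (r = 0.04, rho = 0.02) and Sqle with Cyp4a1 (r = -0.05, rho = -0.01) were among the weakest.

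Some spread came from single arrays. In 84 named genes 1 array made up most of the variance, and for 28 of these it was that of rat 1048 and for 9 that of rat 1032, both wide. They included Klrc1, Fgf16 and Cdh8, an NK cell receptor, a growth factor and a cadherin. Of 75 that could be tested, none passed between liver and quad (limma, 2 at an unadjusted p under 0.05). Over all named genes 4.106% passed, so the absence of passing genes does not by itself clearly set these genes apart. At an unadjusted p under 0.05 the share was lower here, with 2 of 75 against 1239 of 9742 named genes. That difference was not tested. Myh1, a fast myosin, was at 3.87 from the day mean in rat 1013, the rat with the highest muscle markers. Cyp7a1, the first enzyme of bile acid synthesis, was by contrast spread over many rats, from -3.04 over -0.21 to 1.53, with an SD of 0.991 and a 5.04-fold range between the 10th and the 90th percentile, and its best partner, the methyltransferase Nnmt, reached 0.61.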

How the data were processed

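Each of the 484 arrays compared 1 rat tissue (Cy5) with a pool of vehicle tissue of the same day (Cy3), per the labels. RNA was extracted with TRIzol and RNeasy from snap-frozen tissue, per the labels' protocols. The deposited values of the authors' table were read as log10 ratios limited to between -2 and 2 and multiplied by 3.3219 to give log2 ratios. Their log base, direction and normalisation are not given in the sources used here. The direction was taken from the dyes and checked: over 53 wide features on 5 days, the median size of the log2 of the mean linear ratio was 0.05 read as rat over pool and 0.884 read as pool over rat.

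Of 23653 probes, 15260 name 1 gene (15204 symbols updated by gene identifier), 17 name several and 8376 name none. Probes of a gene were averaged, and 18403 of 18603 features had a value on at least 80% of the liver arrays. In the livers 1.238% of probe values were missing. The precision is limited by the number of arrays. The labels number the rats separately, and each liver was measured on 1 array. The mean of each day was subtracted. Every feature was fitted on day and a reference gene with limma 3.58.1 in R 4.3.3 (two-sided moderated test, Benjamini-Hochberg adjustment over 18402 features, threshold 0.05), and liver on quad of the same rat, paired by the rat number in the titles, in the same way. Pairs of reference genes were tested by two-sided permutation within days (100000 resamples), with Python 3.11.15, numpy 2.4.6, pandas 2.3.3 and scipy 1.17.1. In simulated data of 73 arrays, the fit recovered 57% of genes with a slope of 0.5 SD and 3% of those with 0.25 SD, with 2 false calls.

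The genes named are the 30 widest (the first 15 with values), the reference genes and the 5 largest correlations each way, up to 6 leading members of a group, and listed genes. Others were named after their values were seen, among them Dtx4, Pira2, Stt3a, Fmo2, Myh1 and Cyp7a1. The lists and reference genes were chosen with earlier results of these data known. The gap rule, the limit of 20 neighbouring genes, the rule on single arrays, the test of liver against quad over all features, the motif search the counts per list between liver and quad and the settings without wide arrays or named rats were added after the data were seen.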

Additional observations from a re-analysis of the deposited data

How the results depend on the processing

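Of 199 alternatives over 21 results, 140 left the result within its limits and 52 moved a count by more than 1.5 times or changed a kept set. In 6 the correlation of Sqle with A2m fell below the threshold, and in 1 S100a9 rose above it (r = 0.48 in soleus). Direction was scored only for Sqle with Fasn, Sqle with A2m, and the same-rat correlations of Dbp, Irf7 and S100a9, and none of these turned. Not scored were the same-rat correlations of Fasn, Cyp4a1 and A2m, which did not pass. Without the 2 rats farthest out in liver they went from 0.19 to -0.05, 0.04 to -0.02 and 0.02 to -0.05. Ranking by a robust spread kept 16 of the 30 widest genes. The number of gene groups was 8 at a distance of 0.3 and 6 with 300 genes, and 4 groups kept most of their genes in each case, as did 9 without rats 1050 and 1054. Without the 2 arrays farthest out in the reference gene, 501 features passed with Dbp, 4 with A2m, 112 with Top2a and 7 with S100a9. With the next reference gene of the list the counts were 3276 (Nr1d1 for Dbp), 1182 (Insig1 for Sqle), 410 (Acot1 for Cyp4a1), 577 (Orm1 for A2m), 227 (Mx2 for Irf7), 476 (Hsph1 for Hspa1a), 335 (Cdk1 for Top2a) and 443 (S100a8 for S100a9). Arrays scaled to one spread gave 1211 for Pck1, 44 for A2m and 33 for S100a9, and 1 probe per gene gave 203 for Top2a. Without the wide arrays the counts were 127 for A2m, 939 for Top2a and 14 for S100a9. Without rat 1041 they were 6 for A2m and 14 for S100a9, and 1 pair of reference genes passed. Soleus in place of quad gave 309 features. The causes were not tested, beyond the smaller number of rats in soleus (33).

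Leaving out each day in turn kept 27 to 29 of the 30 widest genes. The counts ran from 598 to 853 for Dbp, 229 to 508 for Sqle, 720 to 1041 for Fasn, 1182 to 1749 for Pck1, 1162 to 2783 for Cyp4a1, 6 to 103 for A2m, 295 to 354 for Irf7, 309 to 1083 for Hspa1a, 167 to 886 for Top2a and 5 to 164 for S100a9. Between 1 and 4 pairs of reference genes passed, with r from 0.86 to 0.88 for Sqle with Fasn and from 0.29 to 0.47 for Sqle with A2m. No paired analysis was possible because no means of groups were compared; the correlation of liver with muscle is itself paired by rat.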
